A study of Homo sapiens and Mus musculus with 21 samples.

Results

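Human MSTO-211H mesothelioma cells carrying a random hairpin were compared with human H2810 mesothelioma cells carrying the same kind of control hairpin, across all genes. The libraries were chosen by their line and hairpin labels, with no measured value used, and they are 4 of the 21 RNA sequencing libraries of the series, 2 for each line. The study profiled mouse and human mesothelioma cells with and without BAP1, the tumour suppressor that removes ubiquitin from histone H2A. The random hairpin libraries are the controls of its BAP1 knockdown, so the 2 groups differ in cell line. MSTO-211H is labelled as pleural tissue with genotype Random shRNA, and H2810 is labelled in the same way; in a separate drug experiment of the series H2810 is labelled Bap1 wildtype. The hairpin sequences, the vector, the time after infection and the culture conditions are not given in the sources used here. Each is a single established line, so a difference between them is a difference between these lines and not between classes of tumour. Nothing says that the 2 libraries of a line came from separate cultures, and p-values therefore measure only the spread between these libraries, which may be technical.

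Mesothelioma arises from the mesothelium, the cell layer that lines the pleural cavity. Mesothelial cells combine epithelial traits, such as simple keratins and the surface protein mesothelin, with mesenchymal ones, such as vimentin, and the tumours are classed as epithelioid, sarcomatoid or biphasic by which of these dominates. MSTO-211H is widely described as a biphasic line. Loss of the 9p21 region, which holds the cell cycle inhibitor CDKN2A and often takes the neighbouring enzyme gene MTAP with it, is among the most common lesions of the disease, beside loss of BAP1 and of the Hippo pathway gene NF2.

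MSTO-211H held far more RNA than H2810 for the simple keratin KRT18, for the laminin-binding integrin chains ITGB4 and ITGA6, for mesothelin and for cyclin D2, and 21 of 26 listed p53 targets were higher. It held far less RNA for fibronectin, the PDGF receptor PDGFRA and cadherin 11. Of the collagens 14 of 23 tested were lower and 6 higher, and of the integrin chains 14 of 18 were lower. Of all genes tested, 39.0% were higher and 40.7% lower in MSTO-211H. Most listed interferon-stimulated and complement genes and 4 aldo-keto reductases were lower in MSTO-211H as well. Runs of neighbouring genes differed together at several places in the genome, among them 9p21 and a zinc finger gene cluster on 19p. In bulk RNA, a smaller share of cells with a transcript and less of it in each cell cannot be told apart.

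Of 60674 genes counted, 15872 passed the filter on low counts and were tested with edgeR's quasi-likelihood test. A gene is called here when its Benjamini-Hochberg adjusted p is below 0.05. By that rule 12655 genes, or 79.7%, differed between MSTO-211H and H2810, with 6189 (39.0%) higher and 6466 (40.7%) lower in MSTO-211H. Counting only called genes that differed at least 2-fold left 6610 genes (41.6%), of which 3030 (19.1%) were higher and 3580 (22.6%) lower in MSTO-211H. At least 16-fold differences were found for 658 higher and 807 lower genes. The median log2 fold change, MSTO-211H over H2810, was -0.03 over all genes tested, and the median of its size was 0.82. With this much of the transcriptome different, a call says little by itself. Counts of 2-fold differences in each gene group below are read against 19.1% higher and 22.6% lower. Counts of all calls are read against 39.0% higher and 40.7% lower.

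The MSTO-211H libraries held 21100693 and 20924941 counts, and the H2810 libraries 23112712 and 20127486. Levels are given as CPM, a gene's counts scaled by the library's total and its TMM factor, in the order of library 1 and library 2 of each line, and are comparable between lines but not between genes of different length. The 2 MSTO-211H libraries were closer to each other than the 2 H2810 libraries, with a chi-square per degree of freedom over genes of 2.33 in MSTO-211H and 18.2 in H2810. In H2810 fibronectin alone took 4.86% and 3.20% of all counts. Leukocyte markers summed to 3.40 and 2.99 CPM in MSTO-211H, against 4.98 and 4.47 CPM in H2810, and 5 of 11 passed the filter; the T cell marker CD3E and the myeloid factor SPI1 had 0 counts in all 4 libraries. Endothelial markers summed to 13.9 and 11.9 CPM in MSTO-211H, against 11.6 and 10.5 CPM in H2810, with 5 of 10 tested. CDH5, the cadherin that defines endothelium, had 0 counts in all 4 libraries. Genes are named below by a rule of size given with the processing steps, and further list members and neighbours on the genome are named for their role or position, chosen after their values were seen.

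**Figure D1:**
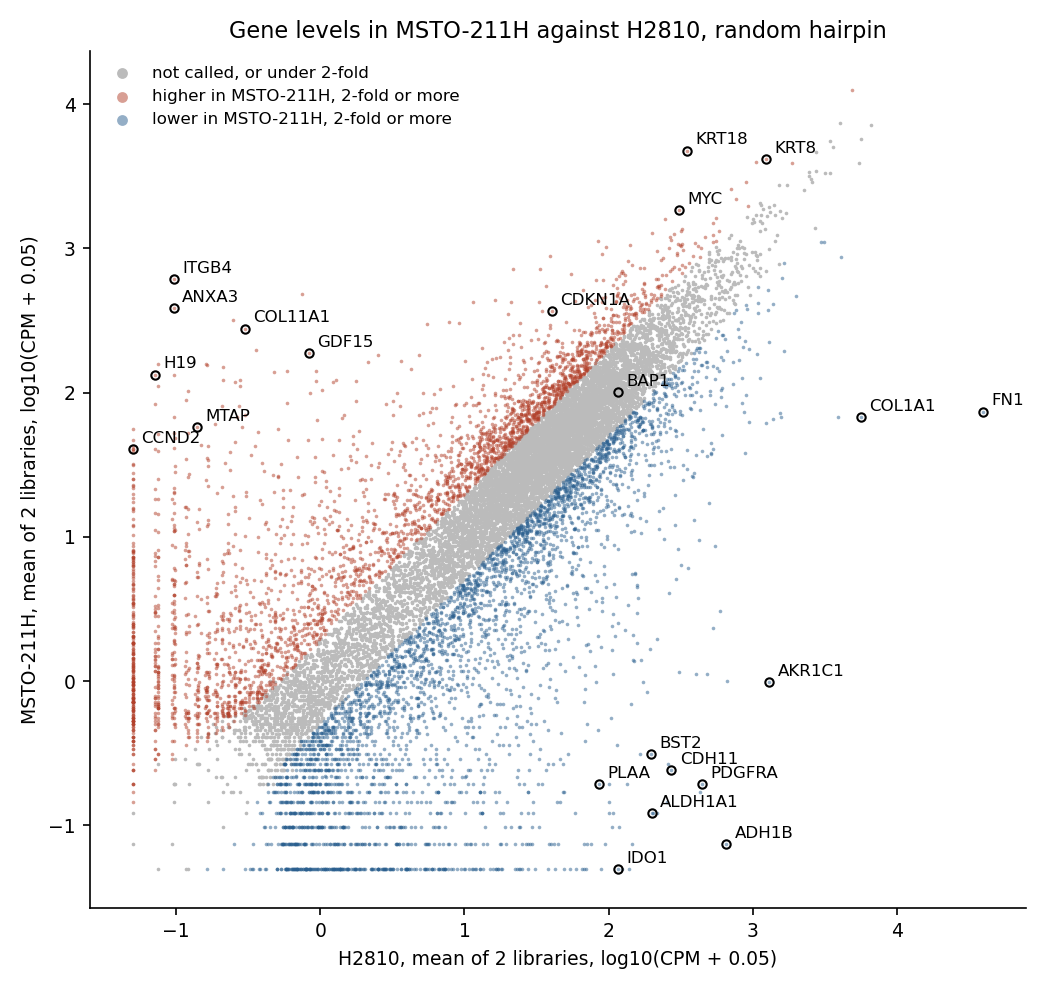
Mean CPM of every gene tested in MSTO-211H (vertical axis) and in H2810 (horizontal axis), 2 random hairpin libraries each, both on a log10 scale after adding 0.05 CPM; red points are called at least 2-fold higher in MSTO-211H and blue points at least 2-fold lower. The 3030 higher and 3580 lower genes reach the lower edges of the plot, where a gene has almost no counts in one line, and BAP1 lies in the grey band of genes that differ by less than 2-fold or are not called.

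Among genes that differed at least 4-fold, the most abundant that were higher in MSTO-211H included chaperones and structural genes beside KRT18 and MYC. HSPD1, a mitochondrial chaperone, had 1247 and 1283 CPM in MSTO-211H, against 279 and 294 CPM in H2810. HSPA9, another, had 1279 and 1378 CPM in MSTO-211H, against 305 and 327 CPM in H2810. FLNC, the actin crosslinker filamin C, had 1669 and 1541 CPM in MSTO-211H, against 272 and 217 CPM in H2810. The alanine tRNA synthetase AARS1 had 1315 and 1397 CPM in MSTO-211H, against 329 and 323 CPM in H2810. The most abundant that were lower were matrix genes for the most part. COL3A1, which encodes type III collagen, had 879 and 855 CPM in MSTO-211H, against 4089 and 4105 CPM in H2810. COL12A1, a collagen that coats fibrils, had 72.8 and 71.3 CPM in MSTO-211H, against 1947 and 1159.5 CPM in H2810. BGN, the proteoglycan biglycan, had 203 and 186 CPM in MSTO-211H, against 1616 and 1674 CPM in H2810. These 7 genes were picked only from genes whose libraries did not overlap between the lines.

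The BAP1 transcript itself was present at 100.1 and 103 CPM in MSTO-211H, against 115 and 117 CPM in H2810. The log2 fold change was -0.19 ± 0.11, which did not pass the test (edgeR quasi-likelihood test, adjusted p = 0.12), and both MSTO-211H libraries lay just below both H2810 libraries. EZH2, the histone H3 lysine 27 methyltransferase whose inhibitor the study also used, was higher, with 52.0 and 55.1 CPM in MSTO-211H, against 36.7 and 36.9 CPM in H2810, a log2 fold change of 0.54 ± 0.05. Across the PR-DUB, PRC2 and PRC1 genes, which encode the BAP1 deubiquitinase complex and the Polycomb complexes, 13 of 42 tested members were higher and 14 lower, and 15 were not called. None was at least 2-fold higher and 3 were at least 2-fold lower, against 19.1% and 22.6% of all genes tested. Of those 3, PHF19, an accessory factor that brings PRC2 to chromatin, averaged 35.7 ± 0.939 CPM in MSTO-211H and 131 ± 4.74 CPM in H2810 (SD, n = 2 each). Its relative PHF1 averaged 13.9 ± 0.211 CPM in MSTO-211H and 41.4 ± 0.996 CPM in H2810, and the PRC1 subunit PCGF5 averaged 48.0 ± 1.34 CPM in MSTO-211H and 113 ± 0.0473 CPM in H2810. The median log2 fold change of the list was -0.07.

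Epithelial genes divided sharply. Keratins 8 and 18 form the intermediate filaments of simple epithelia and mesothelium. KRT18 stood at 4862 and 4659 CPM in MSTO-211H, against 340.2 and 360.2 CPM in H2810, a log2 fold change of 3.77 ± 0.06 (adjusted p = 3.4e-13). Its partner KRT8 stood at 4396 and 3912 CPM in MSTO-211H, against 1226 and 1266 CPM in H2810, a log2 fold change of 1.74 ± 0.06. Both lines expressed the pair, with every MSTO-211H library above every H2810 library. KRT80, a keratin linked to desmosomes, had 443 and 404 CPM in MSTO-211H, against 11.2 and 11.6 CPM in H2810. The tight junction protein CLDN1 had 119 and 121 CPM in MSTO-211H, against 1.42 and 1.99 CPM in H2810. The desmosomal plakophilin PKP3 had 38.0 and 33.3 CPM in MSTO-211H, against 0.644 and 0.632 CPM in H2810. For these 3 genes the H2810 libraries were low but not at 0.

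Of the 30 listed keratins and epithelial junction genes, 16 could be tested; 12 were at least 2-fold higher in MSTO-211H and 2 at least 2-fold lower, with a median log2 fold change of 2.26. The 2 lower ones were structural desmosome proteins. DSP, desmoplakin, had 2.82 and 2.89 CPM in MSTO-211H, against 126 and 87.9 CPM in H2810. JUP, plakoglobin, had 3.54 and 2.51 CPM in MSTO-211H, against 42.7 and 41.8 CPM in H2810. Both were lower in every MSTO-211H library. The members that were not tested include genes that define carcinoma epithelium. EPCAM, an adhesion molecule, had 0.0478 and 0.0482 CPM in MSTO-211H, against 0.0429 and 0 CPM in H2810. CDH1, which encodes E-cadherin, had 0.0957 and 0.145 CPM in MSTO-211H, against 0 and 0.0486 CPM in H2810. KRT19 had 0.144 and 0.0964 CPM in MSTO-211H, against 0.129 and 0.389 CPM in H2810. Each was at trace counts in both lines.

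Mesothelial markers went both ways. MSLN encodes mesothelin, a surface glycoprotein of mesothelial cells and a drug target in mesothelioma. It had 171 and 156 CPM in MSTO-211H, against 2.40 and 1.75 CPM in H2810, a log2 fold change of 6.28 ± 0.10 (adjusted p = 6.9e-13). UPK3B, an uroplakin of the mesothelium, had 19.95 and 16.8 CPM in MSTO-211H, against 0.0858 and 0 CPM in H2810; with 2 counts over both H2810 libraries, it was 403-fold (95% exact interval 111 to 3337) higher in MSTO-211H. BNC1, the zinc finger factor basonuclin 1, had 91.2 and 95.8 CPM in MSTO-211H, against 10.2 and 11.96 CPM in H2810. In these 3 genes both MSTO-211H libraries stood above both H2810 libraries. The reverse held for others. WT1, a transcription factor stained in the diagnosis of mesothelioma, had 7.42 and 7.52 CPM in MSTO-211H, against 24.8 and 25.4 CPM in H2810. The lectin ITLN1 had 21.9 and 18.3 CPM in MSTO-211H, against 169 and 183 CPM in H2810. PRG4, which encodes the lubricant lubricin, had 0 CPM in both libraries of MSTO-211H, against 11.7 and 8.41 CPM in H2810. EFEMP1, the secreted glycoprotein fibulin 3, had 71.9 and 64.0 CPM in MSTO-211H, against 1524 and 1613 CPM in H2810. In these 4 genes both H2810 libraries stood above both MSTO-211H libraries.

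CALB2 encodes calretinin, a marker widely used in the pathology of mesothelioma, and it did not keep its order between hairpins. With the random hairpin it had 12.1 and 9.401 CPM in MSTO-211H, against 18.9 and 21.2 CPM in H2810, a log2 fold change of -0.90 ± 0.10. In the shBAP1 libraries it had 50.9 and 49.6 CPM in MSTO-211H, against 36.8 and 36.6 CPM in H2810, a log2 fold change of 0.45 ± 0.08. The difference between the 2 line contrasts passed the test (adjusted p = 2.8e-05). In all, 6 of 18 tested mesothelial markers were higher and 12 lower in MSTO-211H, 6 and 8 of them at least 2-fold, and the median log2 fold change was -0.84. MUC16, the CA125 antigen, had 0 counts in all 4 libraries. KRT5, a keratin of epithelioid mesothelioma, had 0.191 and 0.0482 CPM in MSTO-211H, against 0.0429 and 0 CPM in H2810 and so was near 0 in both lines.

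Mesenchymal genes were mostly lower in MSTO-211H. PDGFRA, a receptor tyrosine kinase typical of fibroblasts, had 0.0957 and 0.193 CPM in MSTO-211H, against 463 and 429 CPM in H2810, a log2 fold change of -11.54 ± 0.14 (adjusted p = 1.5e-13). CDH11, the cadherin of mesenchymal cells, had 0.191 and 0.193 CPM in MSTO-211H, against 274 and 272 CPM in H2810, a log2 fold change of -10.43 ± 0.11. In both genes MSTO-211H was near 0 in each library while H2810 expressed both. SNAI2, a repressor that drives the epithelial to mesenchymal transition, had 10.9 and 10.5 CPM in MSTO-211H, against 165 and 170.0 CPM in H2810. FAP, a serine protease of activated fibroblasts, had 2.68 and 2.89 CPM in MSTO-211H, against 24.9 and 26.6 CPM in H2810. Vimentin was abundant in both lines and lower in MSTO-211H, with VIM at 1129 and 1079 CPM in MSTO-211H, against 3076 and 3218 CPM in H2810.

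Among the mesenchymal genes and EMT factors, 4 of 27 tested members were higher and 19 lower, and at 2-fold the split was 2 to 15. One of the 2 higher ones was the receptor kinase AXL, at 584 and 600.0 CPM in MSTO-211H, against 131 CPM in both libraries of H2810. The other was LOXL2, which crosslinks collagen, at 1006 and 932 CPM in MSTO-211H, against 327 and 332 CPM in H2810. ZEB1, a repressor of epithelial genes, averaged 47.9 ± 1.07 CPM in MSTO-211H and 105 ± 0.0296 CPM in H2810 (SD, n = 2 each), while its relative ZEB2 differed little, with a log2 fold change of -0.19 ± 0.06 whose call was lost in some alternative fits. The listed fibroblast markers summed to 1107 and 1056 CPM in MSTO-211H, against 10902 and 10349 CPM in H2810, with 2 of 12 tested members at least 2-fold higher in MSTO-211H and 9 at least 2-fold lower; several of them are on the mesenchymal and collagen lists too. Whether other cells contributed to these levels was not tested.

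Extracellular matrix genes were among the most abundant in H2810. Fibronectin, the glycoprotein that cells bind through integrins, had 79.8 and 67.9 CPM in MSTO-211H, against 48182 and 31317 CPM in H2810, a log2 fold change of -9.07 ± 0.28 (adjusted p = 6.0e-11). The 2 H2810 libraries differed from each other in FN1, yet by far less than the lines did. COL1A1, the alpha 1 chain of type I collagen, had 73.5 and 61.2 CPM in MSTO-211H, against 5901 and 5353 CPM in H2810. COL6A3, a chain of the microfibrillar type VI collagen, had 1.148 and 1.01 CPM in MSTO-211H, against 552 and 411 CPM in H2810. TIMP1, an inhibitor of matrix metalloproteinases, had 71.0 and 64.3 CPM in MSTO-211H, against 3744 and 4062 CPM in H2810. In each of these 4 genes both MSTO-211H libraries lay below both H2810 libraries.

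Of 23 tested collagen genes, 5 were at least 2-fold higher in MSTO-211H and 13 at least 2-fold lower, and the median log2 fold change was -1.40. The type IV chains of basement membranes COL4A1 and COL4A2, the type V chains COL5A1 and COL5A2 and the type VI chains COL6A1 and COL6A2 were all among the lower ones. COL11A1, a minor fibrillar collagen known from activated fibroblasts and cartilage, went the other way, at 284 and 271 CPM in MSTO-211H, against 0.258 and 0.243 CPM in H2810, a log2 fold change of 10.08 ± 0.15. The basement membrane chain COL4A6 was also higher, at 30.0 and 34.7 CPM in MSTO-211H, against 4.59 and 5.15 CPM in H2810. COL1A2, whose product normally pairs with that of COL1A1 in type I collagen, had 0 counts in both MSTO-211H libraries and 1 count over both H2810 libraries, although COL1A1 was among the most heavily counted genes of H2810.

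Matrix glycoproteins divided about evenly, with 9 at least 2-fold higher and 12 at least 2-fold lower of 28 tested. The laminin chain LAMA5 had 631 and 511 CPM in MSTO-211H, against 148 and 104 CPM in H2810. LAMB3, a chain of the epithelial laminin that hemidesmosomes bind, had 1.05 and 1.40 CPM in MSTO-211H, against 78.9 and 81.2 CPM in H2810. FBN1, which encodes fibrillin 1, had 7.18 and 4.87 CPM in MSTO-211H, against 451 and 261 CPM in H2810. Among matrix proteases and inhibitors 11 of 22 tested were at least 2-fold lower. MMP14, the membrane-bound collagenase that activates MMP2, had 1.77 and 2.02 CPM in MSTO-211H, against 216 and 219 CPM in H2810. MMP2 itself had 0.144 and 0.0964 CPM in MSTO-211H, against 12.5 and 13.0 CPM in H2810. The plasminogen activator inhibitor SERPINB2 was higher, at 412 and 438 CPM in MSTO-211H, against 32.1 and 33.6 CPM in H2810.

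Integrins, the receptors for these matrix proteins, also separated the lines. ITGB4, which pairs with ITGA6 to hold hemidesmosomes to laminin, had 636 and 584 CPM in MSTO-211H, against 0.0429 and 0.0486 CPM in H2810. Its log2 fold change was the largest positive one among called, non-overlapping genes whose mean CPM had a log2 of 1 or more. With 2 counts over both H2810 libraries the ratio was 13376-fold (95% exact interval 3702 to 110456) in favour of MSTO-211H. ITGA6 had 278 and 267 CPM in MSTO-211H, against 34.2 and 28.5 CPM in H2810. Among other laminin-binding chains, ITGA3 had 1099.7 and 1058 CPM in MSTO-211H, against 308 and 296 CPM in H2810. ITGA7 had 26.5 and 22.5 CPM in MSTO-211H, against 1.07 and 1.02 CPM in H2810. These were the only 4 of 18 tested integrin subunits that were higher, and all 4 differed at least 2-fold.

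The remaining 14 tested subunits were at least 2-fold lower in MSTO-211H, against 22.6% of all genes, and the median log2 fold change of the list was -2.56. The collagen-binding chains ITGA1, ITGA2, ITGA10 and ITGA11 were all in this set. ITGA11 had 0.191 and 0.0964 CPM in MSTO-211H, against 103 and 97.7 CPM in H2810. ITGA1 had 1.05 and 1.06 CPM in MSTO-211H, against 71.3 and 65.4 CPM in H2810. The fibronectin receptor chain ITGA5 had 92.6 and 93.9 CPM in MSTO-211H, against 603 and 608 CPM in H2810. ITGAV, which binds fibronectin and vitronectin, had 38.3 and 34.2 CPM in MSTO-211H, against 501 and 459 CPM in H2810. Its partner ITGB5 had 4.21 and 5.16 CPM in MSTO-211H, against 107 and 113 CPM in H2810. ITGB1, the common partner of most alpha chains, was present in both lines at 402 and 404 CPM in MSTO-211H, against 873 and 914 CPM in H2810. Both lines transcribed these 3. ITGA9, which pairs with ITGB1, had 0 and 0.0482 CPM in MSTO-211H, against 30.5 and 28.7 CPM in H2810; from 1 count in MSTO-211H this is a ratio of 1234-fold (95% exact interval 221 to 48786) in favour of H2810.

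**Figure D2:**
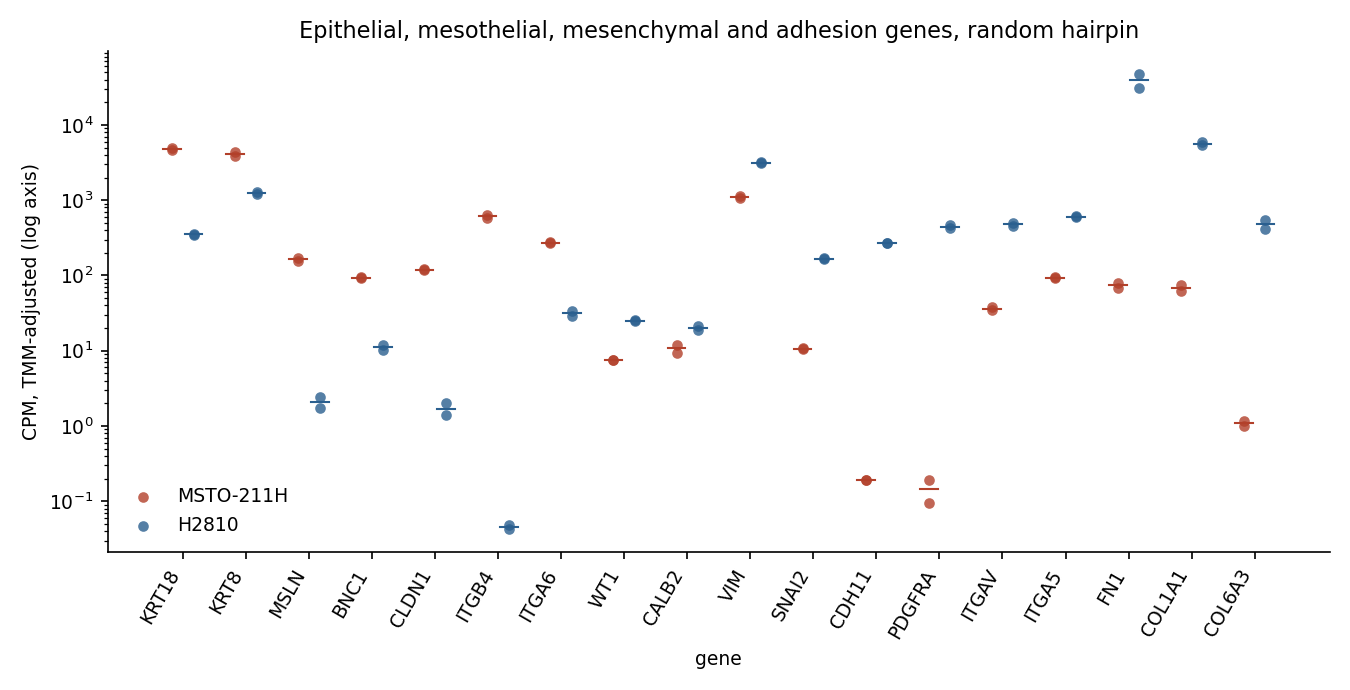
CPM (log axis) of 18 epithelial, mesothelial, adhesion, mesenchymal and matrix genes in each random hairpin library of MSTO-211H (red, left of each pair) and H2810 (blue, right), with a bar at the mean of the 2 libraries. KRT18, KRT8, MSLN, BNC1, CLDN1, ITGB4 and ITGA6 are higher in MSTO-211H and the other 11 genes are lower, with no overlap between lines; PDGFRA, CDH11, FN1 and COL6A3 are furthest apart on that side.

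Target genes of p53, the transcription factor that answers DNA damage and other stress, were mostly higher in MSTO-211H. CDKN1A, the cell cycle inhibitor p21, had 363 and 376 CPM in MSTO-211H, against 39.9 and 40.6 CPM in H2810, a log2 fold change of 3.20 ± 0.05 (adjusted p = 5.1e-13). MDM2, the ubiquitin ligase that p53 induces and that degrades p53, had 305 and 310.2 CPM in MSTO-211H, against 52.5 and 48.8 CPM in H2810, a log2 fold change of 2.60 ± 0.05. GDF15, a secreted stress cytokine, had 179.7 and 195 CPM in MSTO-211H, against 0.687 and 0.875 CPM in H2810. For each of these the replicate libraries were close and the lines did not overlap.

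Some p53 targets were missing from H2810 almost altogether. PHLDA3, a repressor of AKT, had 48.9 and 47.9 CPM in MSTO-211H, against 0 and 0.0973 CPM in H2810, a ratio of 1061-fold (95% exact interval 293 to 8769) in favour of MSTO-211H from 2 counts in H2810. EDA2R, a death receptor of the TNF receptor family, had 30.8 and 31.5 CPM in MSTO-211H, against 0 and 0.0973 CPM in H2810, a ratio of 684-fold (95% exact interval 189 to 5651) in the same direction. Each had at most 2 counts in H2810. SPATA18, which acts in mitochondrial quality control, had 12.6 and 11.5 CPM in MSTO-211H, against 0 CPM in both libraries of H2810, so that it was at least 176-fold higher in MSTO-211H, taking 3 counts over both H2810 libraries as the limit. The ferredoxin reductase gene FDXR had 61.8 and 61.6 CPM in MSTO-211H, against 6.01 and 6.03 CPM in H2810. The proapoptotic BBC3, known as PUMA, had 32.5 and 35.1 CPM in MSTO-211H, against 6.31 and 6.90 CPM in H2810. BAX had 192 and 191 CPM in MSTO-211H, against 59.3 and 61.8 CPM in H2810.

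Over the whole list, which leaves CDKN1A to the cell cycle genes, 21 of 26 p53 targets were higher in MSTO-211H and 3 lower, with 19 and 1 of them past 2-fold, where 19.1% and 22.6% of all genes were. The median log2 fold change was 1.75, against -0.03 over all genes tested. FAS, a death receptor, had 11.2 and 12.4 CPM in MSTO-211H, against 27.3 and 27.4 CPM in H2810. The DNA polymerase gene POLH had 24.3 and 22.8 CPM in MSTO-211H, against 45.6 and 38.1 CPM in H2810. Both were lower in each MSTO-211H library than in either H2810 library. Outside the list, the long noncoding RNA gene PURPL, itself a p53 target, had 21.9 and 24.1 CPM in MSTO-211H, against 0 CPM in both libraries of H2810. PINCR, another p53-induced noncoding RNA, had 15.3 and 16.2 CPM in MSTO-211H, against 0 CPM in both libraries of H2810. MIR34AHG, the host transcript of the p53-induced microRNA miR-34a, had 14.7 and 17.3 CPM in MSTO-211H, against 0.0858 and 0.0486 CPM in H2810. All 3 were near 0 in H2810 and were chosen after their values were seen.

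Cell cycle genes were a mixed group. CCND2, which encodes cyclin D2, had 39.8 and 41.1 CPM in MSTO-211H, against 0 CPM in both libraries of H2810 and was at least 591-fold higher in MSTO-211H. Cyclin D3 had the opposite order, with CCND3 at 38.8 and 38.1 CPM in MSTO-211H, against 195 and 209 CPM in H2810. CCND1, the cyclin D1 gene, had 268 and 248 CPM in MSTO-211H, against 141 and 142 CPM in H2810. MSTO-211H was thus higher in CCND1 and CCND2, and H2810 in CCND3. The cyclin D partner CDK4 had 273 and 276 CPM in MSTO-211H, against 125 and 132 CPM in H2810. CDKN2C, an inhibitor of that kinase, had 11.4 and 10.4 CPM in MSTO-211H, against 36.8 and 38.8 CPM in H2810. Of 22 tested cyclins, CDKs and CDK inhibitors, 4 were at least 2-fold higher in MSTO-211H and 6 at least 2-fold lower. Of 39 tested proliferation genes, 4 were at least 2-fold higher and 2 at least 2-fold lower, both below the shares over all genes. The replication helicase subunit MCM2 had 155 and 152 CPM in MSTO-211H, against 49.9 and 53.3 CPM in H2810. The mitotic kinesin KIF11 had 35.9 and 36.8 CPM in MSTO-211H, against 101 and 95.1 CPM in H2810. MYC, the growth-promoting transcription factor, was high in both lines, at 1793 and 1877 CPM in MSTO-211H, against 298 and 314 CPM in H2810.

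Among death receptor ligands and the BCL2 family, TNFSF10, the death ligand TRAIL, had 0 CPM in both libraries of MSTO-211H, against 64.8 and 69.2 CPM in H2810, so that it was at least 928-fold lower in MSTO-211H. The antiapoptotic BCL2L1 had 404 and 408 CPM in MSTO-211H, against 73.6 and 76.3 CPM in H2810. BCL2 had 11.2 and 12.1 CPM in MSTO-211H, against 0.730 and 1.07 CPM in H2810. HRK, a proapoptotic BH3-only protein, had 20.3 and 23.4 CPM in MSTO-211H, against 0.0429 and 0.0486 CPM in H2810. The list divided into 8 members at least 2-fold higher and 9 at least 2-fold lower of 30 tested. PYCARD, the adaptor ASC of the inflammasome, which is on none of the lists and was chosen after its values were seen, had 0 CPM in both libraries of MSTO-211H, against 16.7 and 17.2 CPM in H2810.

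At 9p21 the lines differed in which genes were silent. The annotation of the count table agrees in position with GENCODE release 44 on GRCh38 for 99.997% of the 60418 genes found there by identifier, and positions are given on that build. MTAP, which salvages methionine from a by-product of polyamine synthesis (chr9:21802636-21937651), had 57.0 and 58.9 CPM in MSTO-211H, against 0.129 and 0.0486 CPM in H2810, a log2 fold change of 9.22 ± 0.17. KLHL9, an adaptor of a ubiquitin ligase (chr9:21329665-21335404), had 83.3 and 83.2 CPM in MSTO-211H, against 0.0429 and 0 CPM in H2810; from 1 count in H2810 the ratio was 3652-fold (95% exact interval 655 to 144280.4) in favour of MSTO-211H. HACD4, an enzyme of fatty acid elongation (chr9:20999509-21031640), had 5.07 and 4.77 CPM in MSTO-211H, against 0 CPM in both libraries of H2810 and was at least 72.0-fold higher in MSTO-211H. These genes lie within less than 1 Mb of one another, and H2810 was near 0 at each of them.

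Of the 9 tested genes on the 9p21 list 7 were at least 2-fold higher in MSTO-211H and 2 at least 2-fold lower. On both sides of the silent stretch H2810 was not silent. FOCAD, on the telomeric side (chr9:20658309-20995955), had 82.4 and 82.2 CPM in MSTO-211H, against 24.5 CPM in both libraries of H2810. On the centromeric side the order turned round at several genes, though not at all. PLAA, a ubiquitin-binding protein (chr9:26903372-26947242), had 0.191 and 0.0964 CPM in MSTO-211H, against 84.3 and 87.1 CPM in H2810, a log2 fold change of -9.16 ± 0.16. Its neighbour IFT74, a component of cilia, had 8.09 and 6.85 CPM in MSTO-211H, against 39.4 and 37.6 CPM in H2810. CAAP1, an inhibitor of apoptosis, had 6.46 and 6.94 CPM in MSTO-211H, against 24.5 and 24.8 CPM in H2810. TUSC1 had 2.15 and 1.64 CPM in MSTO-211H, against 17.4 and 16.4 CPM in H2810. All 4 of these genes were lower in MSTO-211H without overlap, and so were MOB3B and C9orf72 beyond them. TEK, beside IFT74, was higher, with 2.44 and 2.02 CPM in MSTO-211H, against 0.172 and 0.146 CPM in H2810. CDKN2B-AS1, nearer to MTAP, was higher too, with 1.96 and 2.94 CPM in MSTO-211H, against 0.258 and 0.340 CPM in H2810. CDKN2A had 0.239 and 0.241 CPM in MSTO-211H, against 0 and 0.0486 CPM in H2810, too few counts in either line to be tested. Farther out, PLIN2, which coats lipid droplets (chr9:19108375-19149290), had 31.9 and 33.0 CPM in MSTO-211H, against 0.300 and 0.389 CPM in H2810. Among the 22 tested genes of this stretch (chr9:19049427-27573866), 8 were at least 2-fold higher in MSTO-211H and 10 at least 2-fold lower.

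Genes near 0 in MSTO-211H lay on 6q near the Hippo kinase gene LATS1 (chr6:149658153-149718105), within a wider region of lower genes. GINM1, which encodes a membrane glycoprotein (chr6:149566294-149591748), had 0.0478 and 0.0964 CPM in MSTO-211H, against 104 and 111 CPM in H2810, and KATNA1, the catalytic subunit of the microtubule-severing katanin (chr6:149594873-149648972), had 0.0478 and 0 CPM in MSTO-211H, against 28.1 and 28.7 CPM in H2810. Their ratios were 1492-fold (95% exact interval 510.2 to 7237) and 1182-fold (95% exact interval 212 to 46723) in favour of H2810. LATS1, the next gene, had 16.7 and 18.2 CPM in MSTO-211H, against 84.2 and 72.1 CPM in H2810 and was present in both lines. Of 17 genes tested in this stretch (chr6:149218641-150069121), 12 were at least 2-fold lower in MSTO-211H and 1 was at least 2-fold higher, and the median log2 fold change was -1.92. On 11q, the phosphatase methylesterase gene PPME1 (chr11:74171267-74254703) had 1130.0 and 1139 CPM in MSTO-211H, against 86.4 and 82.1 CPM in H2810. Its neighbour C2CD3, needed for centrioles, had 196 and 191 CPM in MSTO-211H, against 38.4 and 34.9 CPM in H2810. PGM2L1, less than 1 Mb away, had 1.10 and 1.25 CPM in MSTO-211H, against 23.9 and 19.9 CPM in H2810, the opposite order. Of 11 genes tested in this stretch (chr11:73951026-74498533), 5 were at least 2-fold higher in MSTO-211H and 4 at least 2-fold lower, with a median log2 fold change of 0.08, so they did not share a direction. DNA copy number was not measured in these libraries, and its part in these stretches was not tested.

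A longer run was the cluster of KRAB zinc finger genes, repressors of retroelements among other sequences, on 19p (chr19:19710472-24129968). All 33 tested genes named ZNF in it had a median of 0.432 CPM in MSTO-211H and 8.17 CPM in H2810. Of the 33, 28 were at least 2-fold lower in MSTO-211H and none was at least 2-fold higher, with a median log2 fold change of -3.58. The other 221 tested ZNF genes of chromosome 19 had 16 at least 2-fold higher and 70 lower, with a median of -0.40, and the 263 ZNF genes on other chromosomes had 31 higher and 50 lower, with a median of -0.07. ZNF43 had 0.0478 and 0.0964 CPM in MSTO-211H, against 18.5 and 18.2 CPM in H2810. ZNF429 had 0 CPM in both libraries of MSTO-211H, against 11.6 and 11.9 CPM in H2810. ZNF626 had 0.0478 and 0 CPM in MSTO-211H, against 11.4 and 12.2 CPM in H2810. These 3 were near 0 in MSTO-211H and at more than 10 CPM in H2810. ZNF genes of this cluster are recent duplicates of one another, and reads that match several copies may have been divided or dropped in the authors' counting, in both lines alike. RefSeq promoter windows were available for 27 of the 33 genes; their median GC content was 56.0%, against 65.3% for the 11366 tested genes with a window, and 85.2% of them had an observed over expected CpG ratio under 0.6, against 18.3%.

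Averaged over 5 Mb windows with at least 8 tested genes, 18 of 516 windows had a median log2 fold change of at least 1 and 16 of -1 or lower. The window at 20 to 25 Mb of chromosome 19 was the lowest, at -4.19 over 39 genes, with 34 at least 2-fold lower and 0 higher. The next lowest, at 25 to 30 Mb of chromosome 9, had a median of -2.06 over 8 genes, the fewest allowed. Its sign depended on the window size. The wider window at 20 to 30 Mb of chromosome 9 had a median of 1.75 over 15 genes, with 8 at least 2-fold higher and 6 lower. The windows of chromosome 6 at 145 to 150, 150 to 155 and 155 to 160 Mb had medians of -1.31, -1.05 and -1.11. The highest window, at 115 to 120 Mb of chromosome 7, had 1.90 over 16 genes. On chromosome 16 the window at 65 to 70 Mb had 1.17 over 89 genes. Whole chromosome medians had a narrower range, with chromosome 18 at 0.61 and chromosome 13 at 0.48 on the higher side in MSTO-211H and chromosome 11 at -0.59 and chromosome 6 at -0.35 on the lower side.

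**Figure D3:**
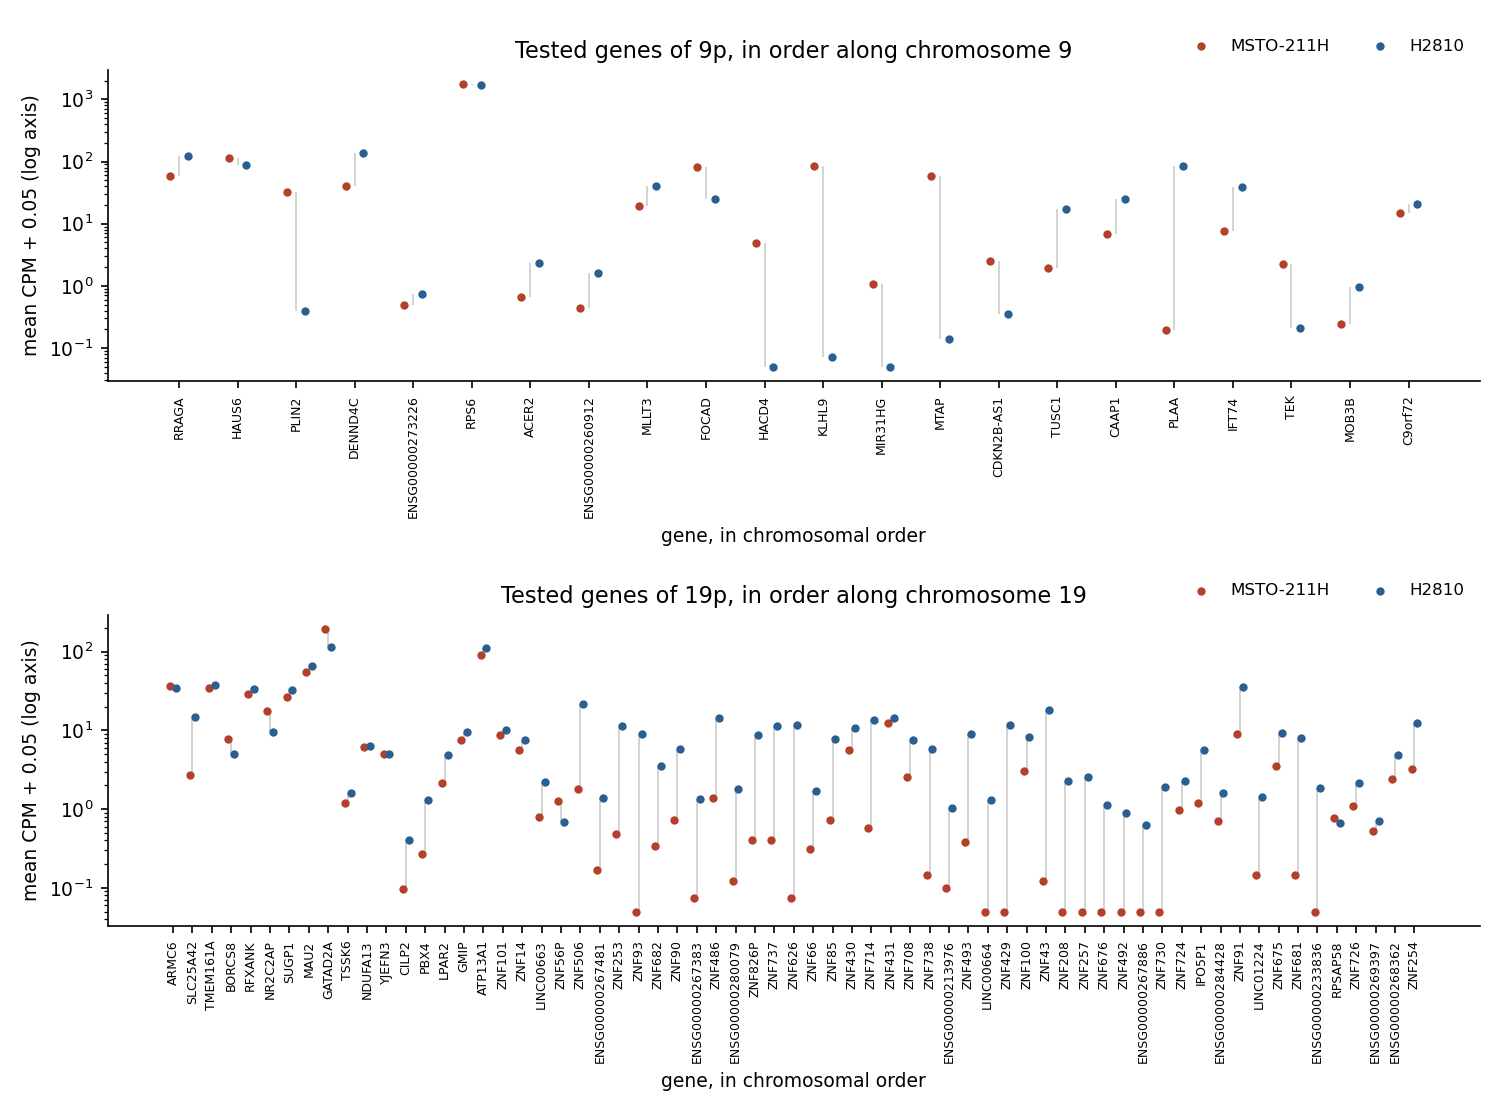
Mean CPM plus 0.05 (log axis) of each tested gene of a 9p stretch (upper panel) and of a 19p stretch that holds the zinc finger cluster (lower panel), in chromosomal order, in MSTO-211H (red, left) and H2810 (blue, right), 2 libraries each. From HACD4 to MTAP the H2810 points lie near the bottom of the plot, whereas at PLAA the MSTO-211H point does; in the 19p cluster 28 of the 33 genes named ZNF are at least 2-fold lower in MSTO-211H.

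Interferon-stimulated genes form the cell's antiviral programme: interferons or sensors of foreign nucleic acid activate factors such as STAT2 and IRF9, which bind the interferon-stimulated response element (ISRE) near the start of these genes. In MSTO-211H 45 of the 47 listed genes were lower, 42 of them at least 2-fold, and 2 were higher. The median log2 fold change was -2.59. RefSeq windows from 250 bases before to 50 bases after the gene start were available for 35 of the 47 genes, and 21 of them, or 60%, held the core ISRE letters, TTTC, any 2 bases and TTTC, on either strand, matches that overlap included; 334 of 11366 windows of tested genes, or 2.94%, did. With fewer than 80% of the list matched, the share is no measure of the whole list. The windows of IFI27, BST2, IFITM1 and IFIT1 are shown because these genes differ by very different amounts while each window holds the motif, which is in capitals; they are from RefSeq, GRCh38.p14, each written 5′ to 3′ along its gene.
IFI27 (chr14:94110486-94110785, plus strand): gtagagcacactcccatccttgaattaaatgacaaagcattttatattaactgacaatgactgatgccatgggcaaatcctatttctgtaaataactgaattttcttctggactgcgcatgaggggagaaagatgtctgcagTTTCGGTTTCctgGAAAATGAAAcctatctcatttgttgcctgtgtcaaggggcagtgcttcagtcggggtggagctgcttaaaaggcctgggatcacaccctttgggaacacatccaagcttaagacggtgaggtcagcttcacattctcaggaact
BST2 (chr19:17405581-17405880, minus strand): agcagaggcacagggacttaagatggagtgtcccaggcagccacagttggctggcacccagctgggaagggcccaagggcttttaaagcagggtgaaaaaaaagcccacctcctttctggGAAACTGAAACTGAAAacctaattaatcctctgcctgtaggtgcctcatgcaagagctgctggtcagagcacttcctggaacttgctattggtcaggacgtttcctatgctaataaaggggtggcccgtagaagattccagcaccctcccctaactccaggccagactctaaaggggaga
IFITM1 (chr11:313790-314089, plus strand): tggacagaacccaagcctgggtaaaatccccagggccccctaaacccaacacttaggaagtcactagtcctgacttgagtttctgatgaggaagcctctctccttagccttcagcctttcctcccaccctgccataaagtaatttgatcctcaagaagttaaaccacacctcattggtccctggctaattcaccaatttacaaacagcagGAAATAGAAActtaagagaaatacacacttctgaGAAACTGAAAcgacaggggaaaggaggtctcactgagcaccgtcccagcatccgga
IFIT1 (chr10:89392373-89392672, plus strand): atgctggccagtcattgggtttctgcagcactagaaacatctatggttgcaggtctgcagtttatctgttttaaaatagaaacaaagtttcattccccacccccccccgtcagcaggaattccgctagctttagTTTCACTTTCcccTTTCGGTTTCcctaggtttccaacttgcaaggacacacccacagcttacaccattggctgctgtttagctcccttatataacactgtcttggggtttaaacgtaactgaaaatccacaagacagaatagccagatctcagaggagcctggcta

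IFI27, a mitochondrial membrane protein, had 0.191 and 0.241 CPM in MSTO-211H, against 244 and 270.2 CPM in H2810, a log2 fold change of -10.18 ± 0.18 (adjusted p = 8.5e-13). BST2, or tetherin, which holds budding viruses on the cell surface, had 0.287 and 0.241 CPM in MSTO-211H, against 190.0 and 204 CPM in H2810, a log2 fold change of -9.51 ± 0.14. Both genes were near 0 in MSTO-211H. IFITM1, which blocks viral entry, had 0.431 and 0.820 CPM in MSTO-211H, against 24.3 and 24.0 CPM in H2810. IFIT1, which binds foreign RNA caps, had 14.5 and 13.9 CPM in MSTO-211H, against 135 and 148 CPM in H2810. IFIT1 was present in both lines. XAF1, a proapoptotic gene of the programme, had 0 and 0.0482 CPM in MSTO-211H, against 71.9 and 62.5 CPM in H2810, a ratio of 2811-fold (95% exact interval 504 to 111071) in favour of H2810. OAS2, which senses double-stranded RNA, had 0.431 and 0.868 CPM in MSTO-211H, against 143 and 144 CPM in H2810. RSAD2, or viperin, and CMPK2 are overlapping neighbours on chromosome 2, whose shared reads cannot be told apart, and had log2 fold changes of -7.64 ± 0.17 and -8.48 ± 0.18.

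The signalling components were lower with their targets. STAT2, which acts with IRF9, had 60.5 CPM in both libraries of MSTO-211H, against 219 and 175 CPM in H2810. IRF7, which amplifies interferon production, had 0.765 and 0.482 CPM in MSTO-211H, against 22.2 and 23.4 CPM in H2810. The RNA sensor RIGI had 17.6 and 18.2 CPM in MSTO-211H, against 156 and 161 CPM in H2810. IFIH1, which encodes the sensor MDA5, had 12.3 and 10.7 CPM in MSTO-211H, against 59.8 and 57.4 CPM in H2810. The receptor chain IFNAR1 had 41.0 and 39.5 CPM in MSTO-211H, against 117 and 114 CPM in H2810. Of these 5 genes only IRF7 was under 1 CPM in MSTO-211H. The exception with a large difference was IFITM2, which had 145 and 139.7 CPM in MSTO-211H, against 0.644 and 0.438 CPM in H2810, a log2 fold change of 8.01 ± 0.10, while its neighbour IFITM3 was lower, at 166 and 163 CPM in MSTO-211H, against 294 and 313 CPM in H2810; IFITM1, IFITM2 and IFITM3 are close copies and reads may have been divided among them. TRIM22 was the other higher gene, at 19.5 and 19.1 CPM in MSTO-211H, against 12.3 and 11.2 CPM in H2810. In H2810 treated with the solvent DMSO, from the drug experiment, IFI27 had 620.3 and 622 CPM and BST2 had 225 and 233 CPM, so a high level of these genes in H2810 was not limited to the hairpin libraries. Summed over the list, the level was 1241 and 1211 CPM in MSTO-211H, against 6018 and 6052 CPM in H2810.

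**Figure D4:**
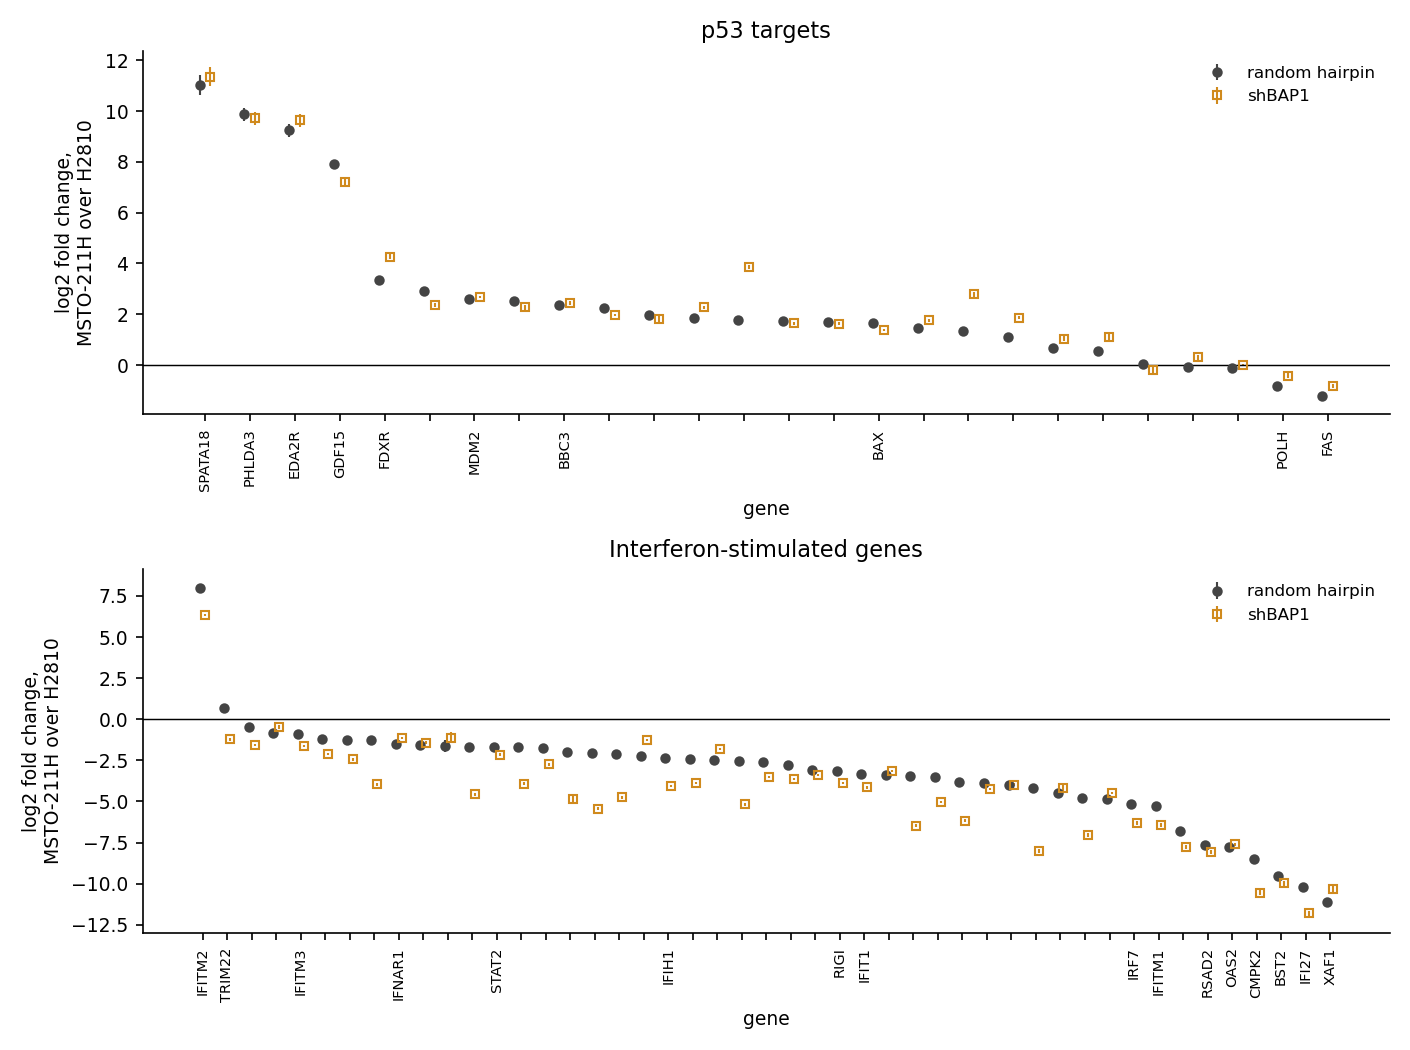
Log2 fold change, MSTO-211H over H2810, of each listed p53 target (upper panel) and interferon-stimulated gene (lower panel), with the random hairpin (filled circles) and with shBAP1 (open squares), bars showing the SE of the fit over 2 libraries in each group; fitted values of genes with almost no counts in a line depend on the prior count of the fit, and only genes described in the text are labelled. Of the p53 targets 21 of 26 lie above 0 and are called with the random hairpin, and 45 of 47 interferon-stimulated genes lie below 0 and are called.

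Of 26 tested antigen presentation genes 20 were lower in MSTO-211H and 5 higher, 13 and 2 of them at least 2-fold. B2M, the light chain of all class I molecules, had 471 and 461 CPM in MSTO-211H, against 1916 and 2068 CPM in H2810. The heavy chain gene HLA-B had 185 and 188 CPM in MSTO-211H, against 1032 and 1116 CPM in H2810. HLA-C had 218 and 199 CPM in MSTO-211H, against 841 and 871 CPM in H2810. Both heavy chain genes were lower in every MSTO-211H library. HLA genes are close copies with many alleles, and alignment to one reference allele can shift their counts. MICB, a stress ligand for natural killer cells, had 2.73 and 2.31 CPM in MSTO-211H, against 46.2 and 44.9 CPM in H2810. The class II chain HLA-DRA and its chaperone CD74 had 0 counts in all 4 libraries.

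Cytokine and NF-kB genes were more often lower than higher in MSTO-211H. CXCL12, a chemokine of stromal cells, had 0.0478 and 0 CPM in MSTO-211H, against 142 and 150.3 CPM in H2810; from 1 count in MSTO-211H this is a ratio of 6082-fold (95% exact interval 1091 to 240255) in favour of H2810. CCL5 had 2.01 and 2.60 CPM in MSTO-211H, against 511 and 546 CPM in H2810. CSF1, the macrophage growth factor, had 44.3 and 45.4 CPM in MSTO-211H, against 506 and 523 CPM in H2810. TNFAIP3, a brake on NF-kB signalling, had 10.1 and 9.26 CPM in MSTO-211H, against 247 and 235 CPM in H2810. Those 4 were lower in MSTO-211H, and other cytokines were higher. LIF, a cytokine of the interleukin 6 family, had 46.1 and 49.2 CPM in MSTO-211H, against 0.987 and 0.973 CPM in H2810. IL32 had 100.04 and 99.4 CPM in MSTO-211H, against 2.79 and 3.94 CPM in H2810. In all 20 of 31 tested genes were lower and 9 higher, 16 and 8 of them at least 2-fold, and the median log2 fold change was -1.01. IDO1, the interferon-inducible enzyme that degrades tryptophan, had 0 CPM in both libraries of MSTO-211H, against 113 and 120.0 CPM in H2810, so that it was at least 1616-fold lower in MSTO-211H.

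Complement and coagulation genes had 19 of 29 tested members at least 2-fold lower in MSTO-211H and 5 at least 2-fold higher, with a median log2 fold change of -2.25. C1R and C1S encode the proteases that start the classical pathway. C1R had 4.16 and 4.68 CPM in MSTO-211H, against 152 and 164 CPM in H2810. C1S had 4.40 and 3.09 CPM in MSTO-211H, against 154 and 168 CPM in H2810. Both MSTO-211H libraries lay below both H2810 libraries in these 2 genes. F3 encodes tissue factor, the membrane protein that starts coagulation, and was higher in MSTO-211H than in H2810, with 250.1 and 231 CPM in MSTO-211H, against 19.7 and 21.01 CPM in H2810. C7, a component of the membrane attack complex that is on none of the lists and was chosen after its values were seen, had 0.0957 and 0.0482 CPM in MSTO-211H, against 216 CPM in both libraries of H2810.

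Detoxification and NRF2 genes were lower in MSTO-211H as a group. Of 28 tested, 21 were at least 2-fold lower and 0 at least 2-fold higher, with a median log2 fold change of -2.09. The aldo-keto reductase AKR1C1, which reduces steroids and reactive aldehydes, had 0.909 and 0.964 CPM in MSTO-211H, against 1243 and 1362 CPM in H2810, a log2 fold change of -10.43 ± 0.11. AKR1B10 had 0.861 and 1.06 CPM in MSTO-211H, against 642 and 690.5 CPM in H2810, a log2 fold change of -9.43 ± 0.09. AKR1C2 and AKR1C3, near-identical copies of AKR1C1 whose reads may be shared with it, had log2 fold changes of -11.75 ± 0.11 and -7.63 ± 0.15. In all 4 genes MSTO-211H was at a few CPM or less and H2810 above 100 CPM.

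ALDH1A1, an aldehyde dehydrogenase that also makes retinoic acid, had 0.0957 and 0.0482 CPM in MSTO-211H, against 192 and 208 CPM in H2810. The drug efflux pump ABCG2 had 4.11 and 3.47 CPM in MSTO-211H, against 110.2 and 114 CPM in H2810. NQO1, a quinone reductase and standard NRF2 target, had 405 and 414 CPM in MSTO-211H, against 1322 and 1429 CPM in H2810, so that it was present in both lines. GCLC, the rate-limiting enzyme of glutathione synthesis, had 57.6 and 53.9 CPM in MSTO-211H, against 451 and 458 CPM in H2810. NFE2L2, which encodes NRF2, had 174 and 170.2 CPM in MSTO-211H, against 397 and 408 CPM in H2810. Those 3 were expressed in both lines, while other enzymes were near absent in MSTO-211H. GSTM3, a glutathione transferase, had 0 CPM in both libraries of MSTO-211H, against 47.4 and 51.1 CPM in H2810. MGST1, a microsomal one that is on no list, had 0 CPM in both libraries of MSTO-211H, against 64.6 and 74.4 CPM in H2810. ADH1B, an alcohol dehydrogenase, had 0 and 0.0482 CPM in MSTO-211H, against 638 and 676 CPM in H2810; from 1 count in MSTO-211H this is a ratio of 27317-fold (95% exact interval 4902 to 1078992) in favour of H2810. ADH1A beside it is a close copy and had 0 CPM in both libraries of MSTO-211H, against 22.2 and 27.7 CPM in H2810. UGT1A10, a glucuronosyltransferase whose exons are shared with the other UGT1A genes, had 0 CPM in both libraries of MSTO-211H, against 134 and 142 CPM in H2810 and was at least 1914-fold lower in MSTO-211H.

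Retinoid genes had a similar order, with 9 of 16 tested at least 2-fold lower in MSTO-211H and 2 higher. ALDH1A3 had 24.6 and 24.8 CPM in MSTO-211H, against 326 CPM in both libraries of H2810. DHRS9, which oxidises retinol, had 0 and 0.0482 CPM in MSTO-211H, against 68.3 and 74.1 CPM in H2810. Other metabolic groups leaned the opposite way. Of the hypoxia and glycolysis genes 12 of 31 were at least 2-fold higher in MSTO-211H and 2 lower. CA9, the carbonic anhydrase that marks hypoxic tumour cells, had 17.4 and 16.9 CPM in MSTO-211H, against 0.0429 and 0.0486 CPM in H2810. ADM, the vasodilator adrenomedullin, had 84.3 and 78.1 CPM in MSTO-211H, against 0.300 and 0.146 CPM in H2810. HIF1A, the hypoxia-inducible factor itself, was lower, at 207 and 201 CPM in MSTO-211H, against 408 and 411 CPM in H2810.

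Arginine, polyamine and one-carbon genes had 15 of 31 tested members at least 2-fold higher in MSTO-211H and 1 lower, MTAP among the higher ones. SLC7A1, the main importer of arginine, had 434 CPM in both libraries of MSTO-211H, against 60.2 and 56.8 CPM in H2810. The single lower gene at 2-fold, the mitochondrial folate enzyme ALDH1L2, had 0.0957 and 0.434 CPM in MSTO-211H, against 173 and 156 CPM in H2810. Its cytosolic relative ALDH1L1 had the opposite order, at 13.0 and 12.3 CPM in MSTO-211H, against 0.129 and 0.0486 CPM in H2810. ASS1, the arginine synthesis enzyme whose loss is exploited in mesothelioma trials, was low in both lines, with 1.48 and 2.07 CPM in MSTO-211H, against 0 CPM in both libraries of H2810. Sterol synthesis genes had 9 of 32 at least 2-fold higher and 2 lower. Respiratory chain subunits had 6 of 35 higher and 0 lower by that measure, both below the 19.1% and 22.6% of all genes tested. Of 46 cytosolic ribosomal protein genes 1 was higher and 0 lower, the lowest share in both directions together among the lists with at least 9 tested members.

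**Figure D5:**
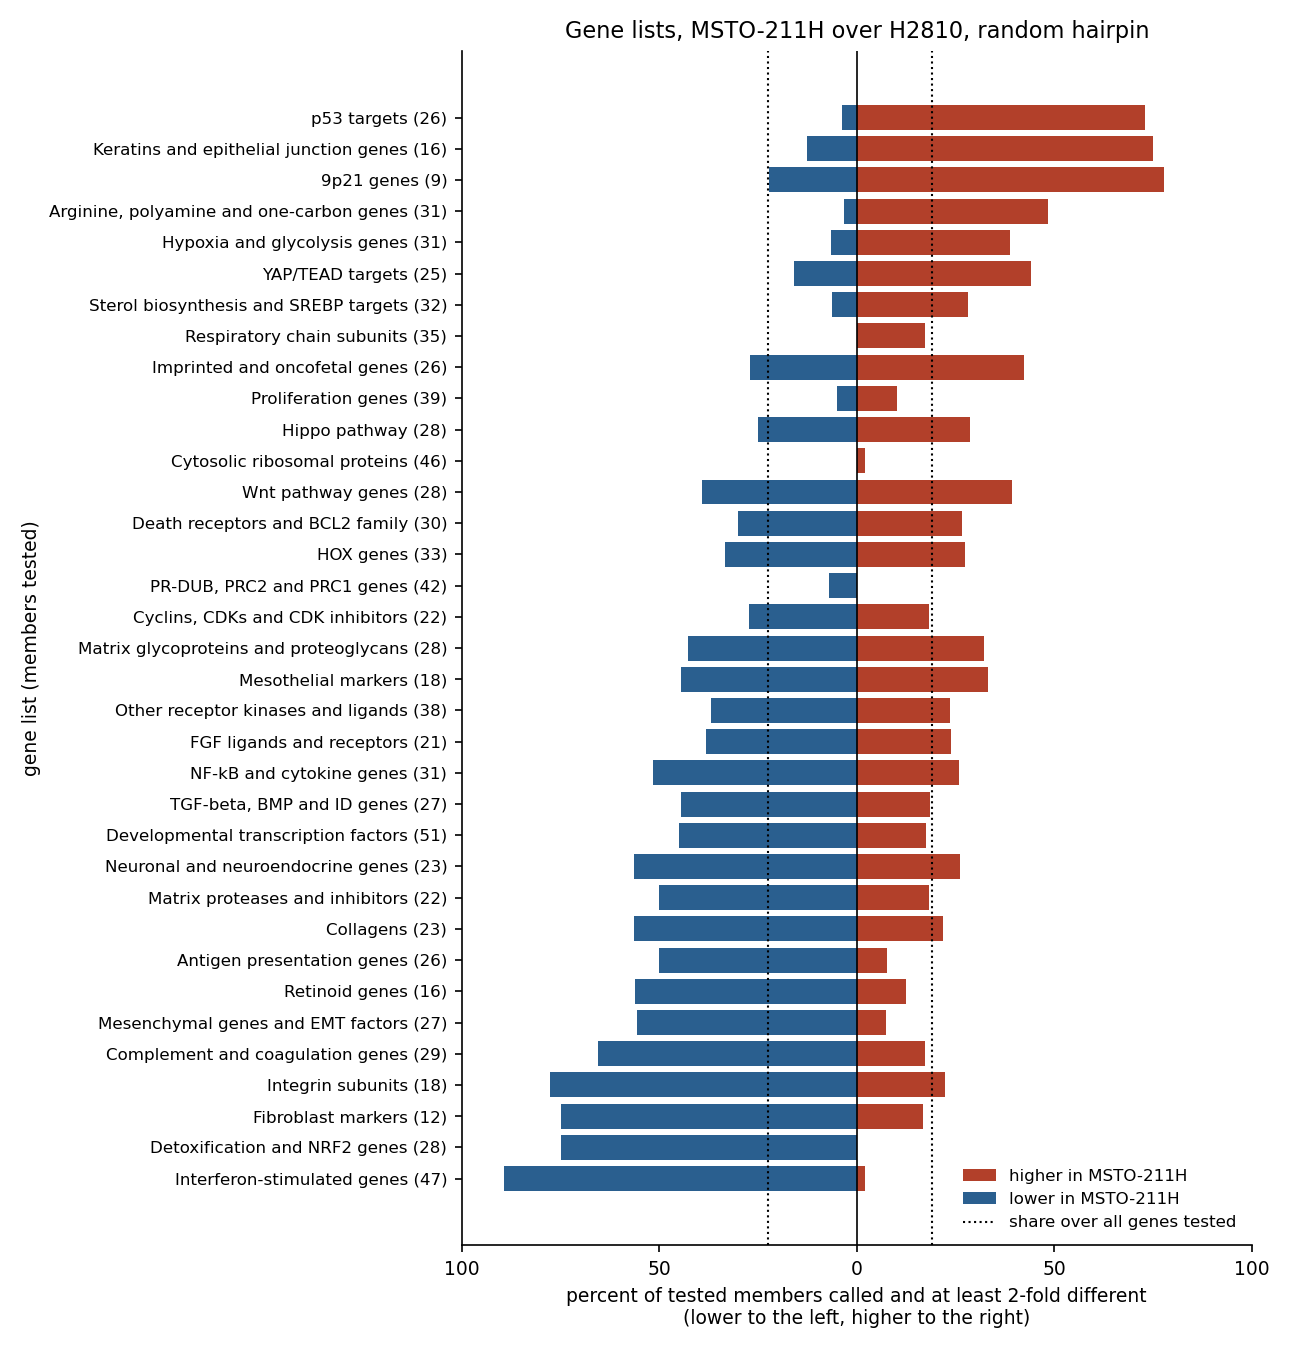
For each gene list with at least 9 tested members, the percent of tested members that were called and at least 2-fold higher (red, to the right) or lower (blue, to the left) in MSTO-211H relative to H2810 with the random hairpin; dotted lines mark 19.1% and 22.6%, the shares over all genes tested. Keratins and epithelial junction genes, 9p21 genes and p53 targets extend farthest to the right, and interferon-stimulated genes, integrin subunits, detoxification genes and fibroblast markers farthest to the left.

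Growth factor receptors differed in both directions. EGFR, the receptor of epidermal growth factor, had 931 and 981 CPM in MSTO-211H, against 239 and 194 CPM in H2810. MET, the receptor of hepatocyte growth factor, had 1038 and 987 CPM in MSTO-211H, against 269 and 256 CPM in H2810. Both were higher in MSTO-211H, as AXL was. ROR2, a receptor for WNT5A, had 0.574 and 0.337 CPM in MSTO-211H, against 71.6 and 69.4 CPM in H2810. WNT5A itself had 237 and 226 CPM in MSTO-211H, against 28.9 and 29.4 CPM in H2810, so ligand and receptor lay on opposite sides. RET, the receptor of GDNF, had 0 CPM in both libraries of MSTO-211H, against 5.41 and 6.47 CPM in H2810 and was at least 82.0-fold lower in MSTO-211H. PDGFD, a ligand of the PDGF receptors, had 0.191 and 0 CPM in MSTO-211H, against 41.8 and 46.1 CPM in H2810, the order of PDGFRA. PDGFB had 12.2 and 13.5 CPM in MSTO-211H, against 0.730 and 0.875 CPM in H2810. The receptor kinase list as a whole divided into 9 members at least 2-fold higher and 14 lower of 38 tested.

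FGF5, a secreted fibroblast growth factor, had 107 and 103 CPM in MSTO-211H, against 1.16 and 0.778 CPM in H2810. SPRY4, a feedback inhibitor induced by receptor signalling, had 4.88 and 4.87 CPM in MSTO-211H, against 85.5 and 81.8 CPM in H2810. DUSP6, a phosphatase with a like role, had 4.35 and 4.001 CPM in MSTO-211H, against 18.6 and 19.1 CPM in H2810. The ligand and the feedback inhibitors thus lay on opposite sides. In the FGF list 5 of 21 were at least 2-fold higher and 8 lower. Of the TGF-beta family, the ligand TGFB2 had 0.144 and 0.337 CPM in MSTO-211H, against 33.4 and 32.2 CPM in H2810. The receptor TGFBR2 had 41.3 and 39.6 CPM in MSTO-211H, against 268 and 277 CPM in H2810. Both were lower in MSTO-211H. FST, the activin antagonist follistatin, had 107 and 129.8 CPM in MSTO-211H, against 1.24 and 1.12 CPM in H2810. ID2, an inhibitor of differentiation induced by BMP, had 0.957 and 0.868 CPM in MSTO-211H, against 8.76 and 10.6 CPM in H2810. ID3, its relative, had 44.1 and 32.5 CPM in MSTO-211H, against 501 and 522 CPM in H2810. In all 12 of 27 tested genes of this list were at least 2-fold lower in MSTO-211H and 5 higher.

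The Hippo pathway, which restrains the coactivators YAP1 and WWTR1 and is often disabled in mesothelioma, was split. NF2 had 92.0 and 92.7 CPM in MSTO-211H, against 61.1 and 65.1 CPM in H2810. YAP1 had 137 and 135 CPM in MSTO-211H, against 245 and 243 CPM in H2810. Relative to H2810, NF2 was higher and YAP1 lower in MSTO-211H. In all 8 of 28 tested pathway genes were at least 2-fold higher in MSTO-211H and 7 lower. The transcriptional targets of YAP1 and its TEAD partners leaned to the higher side, with 11 of 25 YAP/TEAD targets at least 2-fold higher and 4 lower. AMOTL2, an inhibitor of YAP that YAP induces, had 687 and 649 CPM in MSTO-211H, against 56.5 and 53.9 CPM in H2810. AJUBA, which restrains LATS kinases, had 524 and 501 CPM in MSTO-211H, against 67.8 and 65.5 CPM in H2810. CCN2, connective tissue growth factor and a classic target, had 53.3 and 48.4 CPM in MSTO-211H, against 607 and 627 CPM in H2810. CCN1, its relative, had the reverse order at 726 and 746 CPM in MSTO-211H, against 177 and 176 CPM in H2810.

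Developmental genes differed in both directions, and several were near 0 in one line. HOX genes record position along the body axis and lie in clusters. HOXA9 had 11.4 and 10.8 CPM in MSTO-211H, against 0 and 0.0973 CPM in H2810. HOXA10 had 14.5 and 14.2 CPM in MSTO-211H, against 3.26 and 3.31 CPM in H2810. HOXA11 had 6.602 and 6.36 CPM in MSTO-211H, against 0.172 and 0.243 CPM in H2810. These 3 neighbours were higher in MSTO-211H, and genes on both sides of them were lower. HOXA5 had 2.01 and 2.12 CPM in MSTO-211H, against 32.5 and 34.2 CPM in H2810. HOXA2 had 0.957 and 0.723 CPM in MSTO-211H, against 6.78 and 8.27 CPM in H2810. HOXA13, at the other end of the cluster, had 1.24 and 0.868 CPM in MSTO-211H, against 4.59 and 4.47 CPM in H2810. Of 33 tested HOX genes 9 were at least 2-fold higher and 11 lower. PAX6, an eye and brain factor, had 0.0957 and 0.0482 CPM in MSTO-211H, against 13.2 and 13.4 CPM in H2810. PAX8, a factor of kidney and thyroid, had 17.2 and 21.1 CPM in MSTO-211H, against 0.172 and 0.340 CPM in H2810. NKX2-5, a heart factor, had 5.50 and 5.98 CPM in MSTO-211H, against 0 CPM in both libraries of H2810. SOX9, a factor of cartilage, had 4.78 and 6.12 CPM in MSTO-211H, against 56.8 and 54.6 CPM in H2810. The developmental factors had 9 at least 2-fold higher and 23 lower of 51.

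Imprinted genes, which are read from one parental allele, included several that were near 0 in one line. The noncoding RNA H19 had 147 and 119.7 CPM in MSTO-211H, against 0.0429 and 0 CPM in H2810, a ratio of 5859.6-fold (95% exact interval 1051 to 231481) in favour of MSTO-211H. IGF2, the growth factor gene beside it, had 1.67 and 1.59 CPM in MSTO-211H, against 20.8 and 22.2 CPM in H2810. MEG3, another imprinted noncoding RNA, had 79.2 and 90.7 CPM in MSTO-211H, against 0.687 and 0.389 CPM in H2810. H19 and MEG3 were higher in MSTO-211H and IGF2 was lower. PEG3, a paternally expressed zinc finger gene, had 0 CPM in both libraries of MSTO-211H, against 4.16 and 4.04 CPM in H2810. NDN, which encodes necdin, had 0 CPM in both libraries of MSTO-211H, against 6.78 and 7.83 CPM in H2810. Of 26 tested imprinted and oncofetal genes, 11 were at least 2-fold higher in MSTO-211H and 7 lower. Of 35 cancer-testis and germline genes only 3 were expressed enough to test. MAGEB2 had 54.2 and 49.3 CPM in MSTO-211H, against 0 and 0.0486 CPM in H2810. PRAME, a tumour antigen, had 19.6 and 20.8 CPM in MSTO-211H, against 0.0858 and 0.195 CPM in H2810. Both were higher in MSTO-211H than in H2810. Of 23 tested neuronal and neuroendocrine genes 6 were at least 2-fold higher and 13 lower. The neuronal adhesion molecule NRCAM had 0.0478 and 0.145 CPM in MSTO-211H, against 102 and 99.1 CPM in H2810. BEX1 had 27.9 and 28.5 CPM in MSTO-211H, against 0 and 0.0973 CPM in H2810. Of Wnt pathway genes 11 of 28 were at least 2-fold higher and 11 lower. The nuclear factor LEF1 had 4.93 and 5.69 CPM in MSTO-211H, against 0 and 0.0486 CPM in H2810. The secreted DKK3 had 42.6 and 39.2 CPM in MSTO-211H, against 515 and 538 CPM in H2810.

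A gene was counted as near absent in a line when it had at most 3 counts over both of its random hairpin libraries and at least 10 CPM in each library of the other line. By that rule 69 genes were near absent in H2810, of which 23 had no count, and 84 were near absent in MSTO-211H, of which 35 had no count. ANXA3, a calcium-binding annexin near absent in H2810, had 386 and 382 CPM in MSTO-211H, against 0.0429 and 0.0486 CPM in H2810. PTGES, the synthase of prostaglandin E2, had 165 and 151 CPM in MSTO-211H, against 0 and 0.0486 CPM in H2810. MATK, a kinase that restrains SRC family kinases, had 41.1 and 40.4 CPM in MSTO-211H, against 0 CPM in both libraries of H2810. SCN9A, a voltage-gated sodium channel of sensory neurons, had 43.2 and 42.2 CPM in MSTO-211H, against 0 CPM in both libraries of H2810. Both H2810 libraries were at or near 0 for these 4 genes. The protease gene TMPRSS15 had 57.4 and 54.6 CPM in MSTO-211H, against 0 CPM in both libraries of H2810. The noncoding RNA PICSAR had 44.5 and 49.6 CPM in MSTO-211H, against 0 CPM in both libraries of H2810. Other genes were near absent in MSTO-211H. LXN, the carboxypeptidase inhibitor latexin, had 0 CPM in both libraries of MSTO-211H, against 120.0 and 129 CPM in H2810. SOST, the Wnt antagonist sclerostin, had 0 CPM in both libraries of MSTO-211H, against 51.7 and 55.7 CPM in H2810. TNFRSF11B, osteoprotegerin, a decoy receptor for the bone cytokine RANKL, had 0 CPM in both libraries of MSTO-211H, against 62.7 and 67.3 CPM in H2810. PCDH7, a protocadherin, had 0 CPM in both libraries of MSTO-211H, against 43.6 and 41.2 CPM in H2810. PLCXD3, a phospholipase C domain protein, had 0 CPM in both libraries of MSTO-211H, against 60.9 and 57.6 CPM in H2810. These 5 genes were at or near 0 in both MSTO-211H libraries. PLCXD3 was not steady within H2810, where the 2 DMSO libraries of the drug experiment, scaled separately, had 5.78 and 6.47 CPM. Some members of these sets lay close together, with less than 0.5 Mb between them. Those near absent in MSTO-211H were CST1 with CST2, ADH1A with ADH1B, ZNF429 with ZNF43, CMPK2 with RNF144A, C7 with PLCXD3, GINM1 with KATNA1, and TNFRSF11B, MAL2 and CCN3. Those near absent in H2810 were PTGDS with LCNL1 and 3 pregnancy-specific glycoprotein genes of chromosome 19, PSG1, PSG7 and PSG5. PSG5 had 112 and 111 CPM in MSTO-211H, against 0 and 0.0486 CPM in H2810; these genes are close copies, and reads may have been divided among them. RefSeq promoter windows were found for only 45 of the 69 and 54 of the 84 genes, less than 80%, so a comparison of their base composition is void.

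The same contrast could be made with libraries that share none of these samples, the 2 shBAP1 libraries of each line. Both contrasts came from the same fit, with a shared filter, scaling and spread, and from the same 2 lines, so they are not independent. There 12414 genes, or 78.2%, differed between MSTO-211H and H2810, with 6061 (38.2%) higher and 6353 (40.0%) lower. Of the genes called with the random hairpin, 10735 (84.8%) were called with shBAP1 in the same direction and 301 in the opposite direction. Of the 6610 genes past 2-fold, 5238 were past 2-fold in the same direction with shBAP1, which is 79.2% of the random hairpin set and 83.4% of the shBAP1 set, and 23 were past 2-fold in the opposite direction. ITGB4 had a log2 fold change of 11.94 ± 0.13 with shBAP1, FN1 of -9.24 ± 0.28, PDGFRA of -10.28 ± 0.14, CDKN1A of 3.71 ± 0.05 and MTAP of 11.10 ± 0.20, each in the direction seen with the random hairpin.

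List medians with shBAP1 kept their sign for the p53 targets, at 1.92, the interferon-stimulated genes, at -4.07, the integrin subunits, at -2.18, the keratins and epithelial junction genes, at 2.60, and the detoxification genes, at -2.25. In all, 34 of 38 list medians kept their sign. The Wnt pathway genes turned, with a median of -0.71 with the random hairpin and 0.86 with shBAP1, and so did the 5 tested leukocyte markers, at -0.28 and 1.42. The medians of the Hippo pathway and of the PR-DUB, PRC2 and PRC1 genes lay within 0.1 of 0 on either side. The collagens had a median of -1.40 with the random hairpin but -0.48 with shBAP1, and the matrix glycoproteins -0.72 with the random hairpin but -0.07 with shBAP1. The 19p zinc finger genes had a median of -4.02. Of the 69 genes near absent in H2810, 59 had at most 3 counts in the 2 shBAP1 libraries of H2810 and 51 at most 3 in its 2 DMSO libraries. Of the 84 near absent in MSTO-211H, 67 had at most 3 counts in the shBAP1 libraries of MSTO-211H, and 68 had at least 10 CPM in each H2810 library with DMSO.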

How the data were processed

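RNA of each library was selected by poly-A and sequenced single-end on a HiSeq after TruSeq preparation, per the labels' protocols. The authors deposited raw read counts per gene for 60674 genes in 1 table of the knockdown experiment and 1 of the drug experiment. The submitters' processing notes name TopHat2 2.0.12, TopHat, HTSeq and DESeq2; the human build, the annotation and the strand setting are not given in the sources used here. Without a stated strand setting, reads of overlapping genes cannot be told apart, and reads of near-identical copies may have been divided or dropped. Gene names and positions came from the reference tables, where 60418 genes matched by identifier.

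The counts were tested with edgeR 4.0.16 in R 4.3.3. Genes were filtered with filterByExpr by group, libraries were scaled by TMM, and a quasi-likelihood model was fitted to the 8 knockdown libraries as 4 groups, with Benjamini-Hochberg adjustment over 15872 genes. The SE is the size of the log2 fold change over the square root of the F statistic. In simulated counts with known changes for this contrast, on 15253 genes, 99 of 100 genes changed 2-fold and 100 of 100 changed 4-fold were recovered, with 19 false calls. Only well-counted genes were changed there, most genes were left unchanged, and each gene's spread was the same in every group. In the data 79.7% of genes were called, and the H2810 libraries varied more than those of MSTO-211H. The simulation therefore could not test the scaling or the shared spread under such conditions. Gene lists were described by counts and medians only, and setting genes with no counts in a line at their bound moved no list median. Bounds take 3 counts over both libraries of a group (0.0720 CPM in MSTO-211H and 0.0684 CPM in H2810); ratios from 1 to 3 counts carry 95% exact binomial intervals. Intervals and bounds cover counting error only. The drug table was scaled on its own, so H2810 levels with DMSO are set beside the others without a test.

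BAP1, EZH2 and list members near absent in one line were named by rule. The rest of the rule took called genes whose mean CPM over the 4 random hairpin libraries had a log2 of 1 or more. From these came the 12 largest log2 fold changes in each direction, and the 8 most abundant in each direction with at least 4-fold differences. Both of these sets held only genes without overlap between the lines. Up to 4 members of each list in each direction were also taken. The 38 lists and the genes named were chosen with earlier results of these data known, and the values of some genes are not reported here. The sequences are RefSeq promoter windows on GRCh38.p14. Alternatives were RLE scaling, 2 other filters, DESeq2 1.42.0, limma-voom (limma 3.58.1), a fit of the 4 random hairpin libraries alone, a replicate block, and leaving out each library. Summaries and plots were made with Python 3.11.15.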

Additional observations from a re-analysis of the deposited data

Results flagged for a closer look

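For 3 genes named above, the difference between MSTO-211H and H2810 had opposite signs with the random hairpin and with shBAP1, and the difference between these line contrasts passed edgeR's quasi-likelihood test of the interaction over all genes. CALB2, calretinin, had a log2 fold change of -0.90 with the random hairpin and 0.45 with shBAP1, a difference of -1.35 ± 0.13 (adjusted p = 2.8e-05). ID2, the inhibitor of differentiation, had -3.39 with the random hairpin and 0.77 with shBAP1, a difference of -4.16 ± 0.21 (adjusted p = 3.0e-07); its shBAP1 libraries held 17.2 and 16.96 CPM in MSTO-211H, against 9.63 and 10.4 CPM in H2810. TRIM22, an antiviral ubiquitin ligase, had 0.71 with the random hairpin and -1.23 with shBAP1, a difference of 1.94 ± 0.11 (adjusted p = 5.9e-07).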

How the results depend on the processing

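Over 11 alternative fits, all 4 counts of called genes stayed within 1.5 times of those reported. Without a filter on low counts 3510 genes were at least 2-fold higher in MSTO-211H and 4088 lower; with at least 50 counts in 2 libraries these were 2236 and 2634. Leaving out each library in turn gave 5870 to 6175 higher genes, 6071 to 6281 lower genes, 3008 to 3156 at least 2-fold higher and 3518 to 3663 at least 2-fold lower; where a line then had 1 library, it was assumed to vary like the other groups. The share of calls that were higher in MSTO-211H ranged between 48.9% and 50.1%. Of 2562 log2 fold changes of named genes under these fits, 2556 kept their direction and their side of the threshold and none changed sign. ZEB2 lost its call in 5 fits, at log2 fold changes between -0.18 and -0.12; BAP1 was called, at -0.16, in the fit of the 4 random hairpin libraries alone. Of 836 list counts 24 moved by more than 1.5 times, each a count of 5 or fewer; among them the 5 collagens and the 5 FGF genes at least 2-fold higher were 3 with at least 50 counts in 2 libraries, the 2 lower hypoxia genes were 1 in 6 fits, and 1 Polycomb gene was at least 2-fold higher without H2810 replicate 2.

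At 5 CPM in the other line 132 genes were near absent in MSTO-211H and 114 in H2810, and at 20 CPM there were 49 and 40. Of 297 windows of 10 Mb, 7 had a median of at least 1 and 5 of -1 or lower. The highest of them, at 20 to 30 Mb of chromosome 9, had a median of 1.75. Its part at 25 to 30 Mb had -2.06 as a 5 Mb window.

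With the replicate number as a block, 6205 genes were higher and 6475 lower in MSTO-211H, 3029 and 3571 of them at least 2-fold, and no call of a named gene changed. The deviations of same-numbered libraries from their group means correlated between -0.0646 and 0.0979 over the group pairs, so little shared effect of the number was seen. With 2 libraries in each group, this cannot tell whether same-numbered libraries were cultured or prepared together.

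With 2 libraries in each group the tests rest on a spread shared among the 4 groups. Each line is a single culture line, so no value separates the line from its handling, library batch or response to the hairpin. Levels under 1 CPM rest on a few reads. DNA copy number, protein and histone marks were not measured in these libraries.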

Other observations

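Some genes that were near absent in MSTO-211H were also much lower in H2810 with DMSO, in the drug experiment, than in H2810 with the random hairpin. NCAM1, the neural cell adhesion molecule, had 0 CPM in both libraries of MSTO-211H, against 23.5 and 23 CPM in H2810 with the random hairpin, and 0.945 and 0.761 CPM in H2810 with DMSO. TSPAN7, a tetraspanin, had 0 and 0.0482 CPM in MSTO-211H, against 18.1 and 17.2 CPM in H2810 with the random hairpin, and 1.61 and 1.28 CPM in H2810 with DMSO. HSD11B1, the enzyme that activates cortisone, had 0 and 0.0482 CPM in MSTO-211H, against 17.7 and 21.3 CPM in H2810 with the random hairpin, and 1.95 and 1.998 CPM in H2810 with DMSO. These 3 genes were chosen after their values were seen, and the 2 experiments were scaled separately and not tested against each other. For ANXA3, near absent in H2810 with the random hairpin, the DMSO libraries of H2810 had 0.500 and 1.142 CPM. Some list sums of H2810 also differed between the experiments. Keratins and epithelial junction genes summed to 1821 and 1846 CPM with the random hairpin, and 3486 and 3327 CPM with DMSO. Sterol genes summed to 2679 and 2665 CPM, and 4320 and 4436 CPM with DMSO. Matrix glycoproteins and proteoglycans went the other way, from 56813 and 38865 CPM to 26872 and 32597 CPM with DMSO.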
